A study of Mus musculus with 4 samples.

Results

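The genes described are those of the proteasome and its direct regulators, in mouse oocytes that had been put under hydrostatic pressure and in control oocytes. They were chosen by name, as all array probes for genes whose symbol begins with Psma, Psmb, Psmc, Psmd, Psme, Psmf or Psmg and a number, leaving out Psmc3ip, which is not a proteasome gene. This gave 43 of the 27670 genes on the array and 65 of its 41174 probes. The treated group was 4 pools of 50 oocytes, each kept under a hydrostatic pressure of 20 MPa for 60 min at 37 °C, and the control group was 4 pools of 50 oocytes handled alike but without the pressure. The labels give no strain, age or meiotic stage for either group. Each of 4 arrays carried 1 treated pool, in the red channel (Cy5), and 1 control pool, in the green channel (Cy3). Dye and treatment therefore cannot be told apart. The RNA of each pool was amplified in a 2-round procedure from 240 pg of total RNA.

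The proteasome is the protease that breaks down proteins tagged with ubiquitin. Its barrel-shaped core is built of rings of alpha subunits, which form the gate, and rings of beta subunits, 3 of which carry the proteolytic sites. A ring of ATPases unfolds the substrate and feeds it in, and the other subunits of the base and lid bind the ubiquitin chain and remove it. Activators such as PA28 (Psme1 to Psme3) and PA200 (Psme4) can cap the core instead. In oocytes the proteasome is known for the destruction of cyclin B and securin that lets meiosis pass from one metaphase to the next stage.

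The genes were read by 60-base probes, and the probe decided in many cases whether a gene could be followed at all. The sequences below are those of the array, with positions in mouse build mm7 as the array files give them. A position that spans more bases than the probe holds joins separate genomic blocks. The pairs for Psmd12 and Psmd2 are shown because the probe nearest the 5′ end was above background in no channel, while another probe of the same gene was detected. Psmd12 has 1 more probe, also detected. Psmb4 is shown because it had the smallest p-value of all members, Psmc6 because its probes disagreed, and Psmb5 and Psmb8 because they are the constitutive and immune forms of the same catalytic subunit. The capitals mark the longest stretch that the Psmb5 and Psmb8 probes share, 8 bases.
Psmd12, detected probe (chr11:107606690-107606749, + strand): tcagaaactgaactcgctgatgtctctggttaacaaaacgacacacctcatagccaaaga
Psmd12, probe nearest the 5′ end (chr11:107594819-107595455, + strand): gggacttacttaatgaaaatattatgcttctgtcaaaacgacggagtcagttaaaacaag
Psmd2, detected probe (chr16:20213208-20213267, + strand): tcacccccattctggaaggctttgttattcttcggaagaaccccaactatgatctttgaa
Psmd2, probe nearest the 5′ end (chr16:20210118-20210417, + strand): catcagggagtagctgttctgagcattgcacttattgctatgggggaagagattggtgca
Psmb4 (chr3:94758353-94758642, - strand): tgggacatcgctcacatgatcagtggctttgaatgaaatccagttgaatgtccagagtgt
Psmc6 (chr14:40665046-40666872, + strand): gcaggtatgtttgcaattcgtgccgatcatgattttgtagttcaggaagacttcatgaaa
Psmb5 (chr14:49480764-49480823, - strand): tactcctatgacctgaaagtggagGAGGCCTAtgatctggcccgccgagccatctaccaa
Psmb8 (chr17:32280668-32280727, + strand): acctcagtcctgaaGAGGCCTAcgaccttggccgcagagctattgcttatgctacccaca

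A probe was kept if the scanner software called it well above background on at least 3 of the 4 arrays in the same channel. Of the proteasome probes 26 of 65 were kept (40.0%), against 19.7% of all probes. They gave 23 of 43 genes (53.5%), against 25% of all genes on the array. The lid and base gave the largest number of genes, 10 of 14. Of the activators 3 of 4 genes were kept, and of the inhibitor and assembly factors the 1 gene found, Psmf1. The core was read less completely, with 4 of 8 alpha and 4 of 10 beta genes, and the ATPases least, with 1 of 6 genes.

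Of the 20 genes that could not be tested, 9 were above background in no channel of any array. These were Psmb1, Psmb5, Psmb8, Psmb9 and Psmb10 of the core, the ATPases Psmc1 and Psmc3, and Psmd8 and Psmd13 of the lid and base. Psmb8, Psmb9 and Psmb10 are the subunits that replace the constitutive catalytic ones in the immunoproteasome, the form induced by interferon, and none of their probes was above background in treated or in control oocytes. Psmb5, the constitutive subunit with chymotrypsin-like activity, was not above background in any channel either. A probe that stays at background sets only a bound and does not show that the transcript was missing.

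The other 11 genes were above background on only 1 or 2 arrays of a channel. They were Psma3, Psma4, Psma6, Psma8, Psmb7, Psmc2, Psmc4, Psmc5, Psmd6, Psmd10 and Psme3. Psmb7, the subunit with trypsin-like activity, was above background on 0 treated arrays and on 1 control array. Psme3, the nuclear PA28 activator, was above background on 2 treated and on 2 control arrays. Psma8, an alpha subunit best known from male germ cells, was above background on 1 array, in the control channel.

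**Figure D1:**
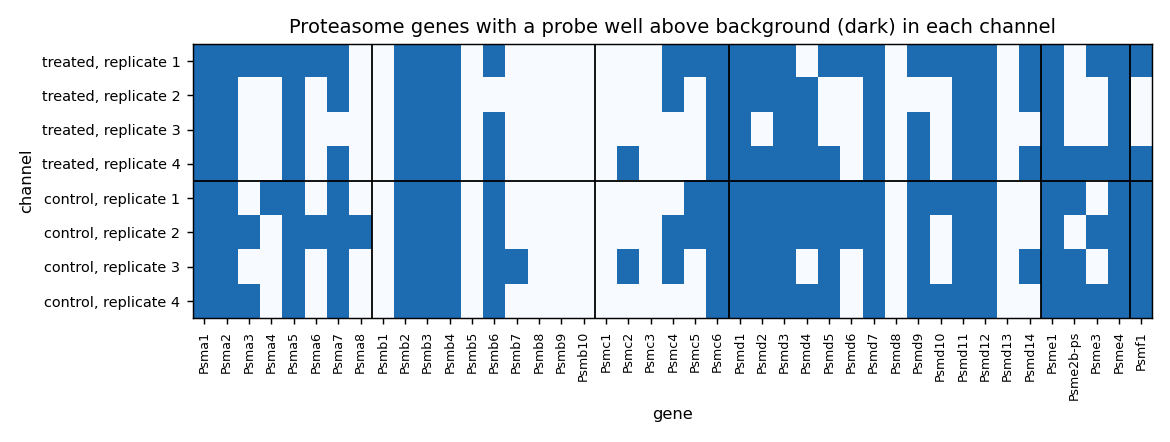
Each column is 1 of the 43 proteasome genes, ordered by role, and each row is 1 channel of 1 array, with treated channels above the control channels. A dark cell marks a gene with at least 1 probe well above background. The ATPases and the immunoproteasome subunits Psmb8 to Psmb10 are mostly or wholly blank in both groups, and 14 tested genes are dark in every row.

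Detection varied more between treated channels than between control channels. Of the 65 proteasome probes 34, 21, 19 and 27 were above background in the treated channel of replicates 1 to 4, against 30, 32, 29 and 29 in the control channel. Replicate 1 was the 1 array with more proteasome probes detected in treated than in control oocytes. The same was so for all 43379 spots. Of these 11155, 7192, 7049 and 8146 were above background in the treated channel, against 8309, 9505, 10102 and 10837 in the control channel. Over the whole array, too, the treated channel was the brighter on replicate 1, where the 99th percentile of its net signal was 2.53 times that of the control channel, and the dimmer on the others, at 0.25 to 0.39 times. The log2 ratios of replicate 1 ran weakly against those of replicates 2, 3 and 4, with correlations of -0.17, -0.15 and -0.19 over all probes. The part of this difference in the values below was not tested.

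Among the 23 tested genes 14 had a probe above background in both channels of all 4 arrays, and 7 others were detected on more control than treated arrays. Psmd14, the lid enzyme that removes ubiquitin chains from substrates, was the 1 gene detected on more treated arrays, 3 against 1 in the control channel. The same count over all genes tested is not given here. Over the whole array, too, more spots were above background in the control channel on replicates 2 to 4. Of the oocyte marker genes on the array 11 of 15 were tested, among them Gdf9, Bmp15 and Zp3, with a median log2 ratio of -0.03 (lowest -0.74, highest 0.48). Of the markers of cumulus and granulosa cells 6 of 17 were tested, with a median of -0.12 (lowest -0.65, highest 0.36). They were Ptgs2, Tnfaip6, Inha, Cyp19a1, Nr5a2 and Hsd17b1. The rest, among them Has2, Amh, Fshr and Foxl2, had no kept probe, which sets only a bound. For blood and immune cells 2 of 8 markers were tested. Srgn had a mean log2 ratio of -0.52 (unadjusted limma p of 0.019, adjusted 0.93) and Hba-a1 one of 0.28. For stroma, oviduct and endothelium 2 of 9 were tested, Acta2 at 0.83 and Kdr at -0.23. The part of other cells in the values below was not tested. A ratio in pooled oocytes cannot tell fewer cells with a transcript from less transcript per cell. The same mass of RNA was amplified from every pool, so a change in the RNA content of an oocyte was not measured either.

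For genes with more than 1 probe, the position of the probe along the gene went with detection. Among the 16 proteasome genes with at least 2 probes in the same orientation, Psmb8 had none detected. In 13 of the other 15 genes (86.7%) the probe nearest the 3′ end was above background in more of the 8 channels than the probe nearest the 5′ end. Over all 5454 genes compared in the same way this was so for 70.4%, and the probe nearest the 5′ end was ahead in 23.2%. Psmd12, Psmd7 and Psme4 had their 3′ probe above background in 8 of 8 channels and their 5′ probe in 0. For Psmd2 the count was 7 channels for the 3′ probe and 0 for the 5′ probe. Psmc6 and Psmd4 ran the other way, with 8 and 6 channels for the 5′ probe against 6 and 0 for the 3′ probe. The labels name a 2-round amplification, and its part in this pattern was not tested.

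**Figure D2:**
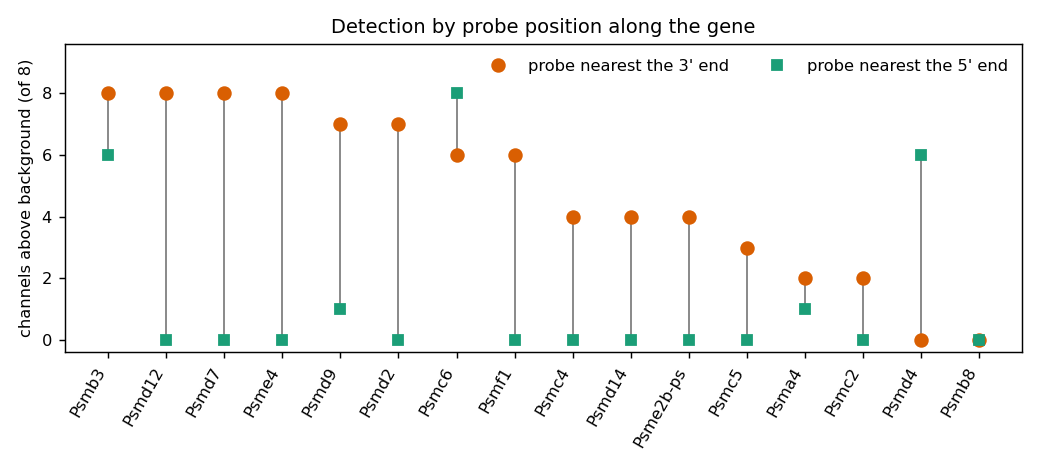
For each of 16 proteasome genes with several probes, the points give the number of the 8 channels in which the probe nearest the 3′ end (circles) and the probe nearest the 5′ end (squares) was above background. The circle lies above the square in 13 genes, and below it in Psmc6 and Psmd4.

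The comparison of treated with control oocytes asks which transcripts differ after the pressure. It was made with limma's moderated test of the log2 ratio (treated over control) against 0, fitted on all 6917 genes tested with Benjamini-Hochberg adjustment over all of them. An SE given below is the moderated one of this fit, drawn toward the spread of all genes. It is not the SE of the gene's own 4 ratios, and is smaller than that for the most variable genes. The members of the proteasome list did not move together, and their values lay on both sides of 0. At an adjusted p of 0.05, 0 of the 23 tested members were called, where the background was 0% of all genes, and the lowest adjusted p of any member was 0.93. Without adjustment 1 member, Psmb4, was under 0.05, where the background was 4.19% of all genes (3.46% lower and 0.737% higher in treated oocytes). Over the 23 members the log2 ratio had a median of -0.06, with 12 below and 11 above 0, against -0.02 over all genes tested.

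The median over the members was -0.22, -0.06, -0.12 and 0.35 on replicates 1 to 4, a mean of -0.01 ± 0.25 (SD, n = 4). Replicates 1 to 3 lay below 0 and replicate 4 above it. The medians of all genes tested ran from -0.04 to -0.0004 on the same arrays. With 4 arrays an exact sign-flip test of a median could not give a two-sided p below 0.125, so none was run. Psmb3 and Psmb4 were the 2 of 23 members with a ratio below 0 on all 4 arrays, where the background was 9.35% of all genes. Above 0 on all 4 arrays were 0 of 23 members, where the background was 2.94%.

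The precision of the single genes was that of the array as a whole. The standard deviation over the 4 arrays had a median of 0.55 on the log2 scale over the members and of 0.52 over all genes tested. The 95% interval of a member's mean reached 0.64 to either side in the median, from 0.45 for Psmb2 to 1.33 for Psmd12. The Psmb2 probe was dim, with net intensities of 9.8 to 30.4 in treated and 27.1 to 39.6 in control oocytes. The background correction added an offset of 50 to both channels, which draws the ratios of dim probes toward 0. A narrow interval for such a probe does not show a well measured, unchanged transcript. Changes smaller than the intervals were not detectable with 4 arrays, and larger ones need not be, as the intervals are not adjusted for the number of genes. Psmb4, at -0.78 with 0.58 to either side, had a limma adjusted p of 0.93. In 16 of the 23 members the mean changed sign when 1 of the 4 arrays was left out. The exceptions were Psma1, Psmb3, Psmb4, Psmd1, Psmd3, Psmd9 and Psme4. The share over all genes tested is not given here, so this count does not set the members apart from other genes.

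**Figure D3:**
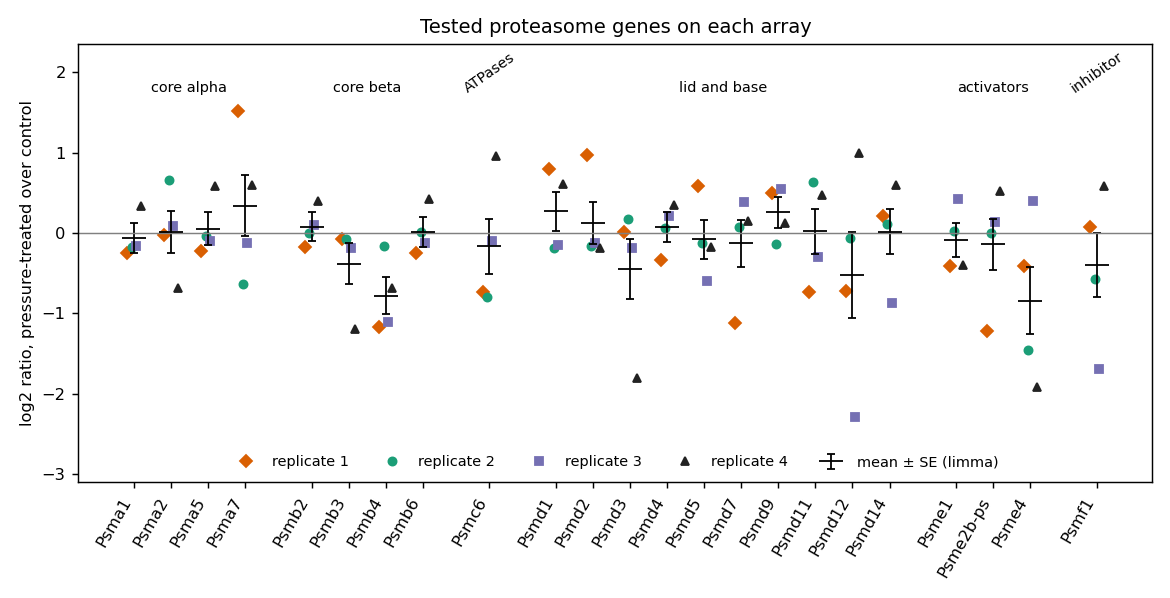
The log2 ratio of treated over control is shown on each of the 4 arrays (symbols) for the 23 tested proteasome genes, ordered by role, with the mean ± SE from limma as bars. The groups of symbols straddle 0 except in Psmb3 and Psmb4, and single arrays lie far from the rest in Psmb3, Psmd3 and Psmd12.

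The alpha subunits form the outer rings of the core and its gate. Their median log2 ratio was 0.03 over 4 tested genes, and -0.12, -0.11, -0.11 and 0.46 on replicates 1 to 4. Replicates 1 to 3 lay close together and replicate 4 stood apart, above 0. Psma7 had ratios of 1.52, -0.63, -0.12 and 0.60 on replicates 1 to 4, a mean of 0.34 ± 0.38 (SE, n = 4). Its sign was not stable, since the mean was -0.05 without replicate 1, and it was also below 0 in the scaled and authors' values. Psma1 had -0.25, -0.17, -0.17 and 0.33, a mean of -0.06 ± 0.18 (SE, n = 4), and without replicate 4 it stood at -0.20. Both Psma1 and Psma7 had a limma adjusted p of 0.93 or above. The means of Psma2 and Psma5 were 0.01 and 0.06, and both changed sign when 1 array was left out.

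The beta subunits line the inner chamber of the core. Their median was -0.18 over 4 tested genes, with -0.21, -0.04, -0.15 and -0.14 on replicates 1 to 4. The beta group was below 0 on every array, and 2 of its 4 tested genes, Psmb2 and Psmb6, had means above 0. The median of all genes tested was also below 0 on every array, at -0.04 to -0.0004. Psmb2 had a mean of 0.08.

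Psmb4, a beta subunit without proteolytic activity, had the largest departure in this group. Its net intensities, before the dyes were balanced, were 118, 75.0, 10.8 and 17 in treated oocytes of replicates 1 to 4, against 168, 262, 270 and 137 in control oocytes. Every treated pool was dimmer than every control pool on this raw scale. That was also so for Psmc1, whose probe was above background in no channel. Psmc1 had 3.5, 7.6, 1.8 and 5.2 in treated oocytes, against 17.5, 19.1, 16.2 and 18.8 in control oocytes. Psmd7, whose probe was above background in both channels of all 4 arrays, was separated on the raw scale as well. It had 58.75, 41.0, 29.2 and 50.0 in treated oocytes, against 104, 89.0, 72.5 and 118 in control oocytes. Its normalized ratio was nonetheless above 0 on 3 of 4 arrays. The raw separation is therefore not particular to Psmb4 and gives no direction. The share over all probes is not given here. After normalization the log2 ratios of Psmb4 were -1.17, -0.17, -1.11 and -0.68. The mean was -0.78 ± 0.23 (SE, n = 4), with a 95% interval of -1.36 to -0.20. The unadjusted p from limma was 0.017 and the adjusted p was 0.93, so Psmb4 was not called. By p-value it ranked 76 among all genes tested. The mean was below 0 in each of the 15 other settings tried, and ran from -0.99 to -0.65 when 1 array was left out. Many of these settings could not have turned the sign. All 4 ratios were below 0, so leaving out or weighting arrays could not do so. With 1 probe for the gene, the filters, the mean over probes and the eBayes settings left the mean at -0.78. Its size depended on the setting, at -1.94 with Agilent's processed signals, -1.87 with the authors' values and -0.20 with the sign of replicate 1 turned.

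Psmb3, a beta subunit that also lacks a proteolytic site, had ratios of -0.08, -0.07, -0.18 and -1.19 on replicates 1 to 4. The mean of -0.38 ± 0.25 (SE, n = 4) rested on replicate 4, and was -0.11 without it. A second kept probe for Psmb3 gave -0.46, -0.06, -0.06 and -0.36, a mean of -0.23, also below 0 on every array. That probe was above background on 2 treated and on 4 control arrays. Psmb6, the catalytic subunit with caspase-like activity and the 1 catalytic subunit that was tested, had -0.25, 0.02, -0.12 and 0.42, a mean of 0.02 ± 0.19 (SE, n = 4). Its values straddled 0, its 95% interval ran from -0.46 to 0.49, and without replicate 4 its mean was -0.12. Its probe was dim as well, with net intensities of 11.8 to 75.5 in treated oocytes, so the interval does not show an unchanged transcript.

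The ATPases were represented by Psmc6 alone, a subunit of the ring that unfolds substrates. Its ratios were -0.73, -0.80, -0.10 and 0.96 on replicates 1 to 4, a mean of -0.17 ± 0.34 (SE, n = 4). The other kept probe of Psmc6 lies farther toward the 3′ end, at 40667689 to 40667748 on chromosome 14 of mm7, and gave 0.85, 0.05, -0.77 and -1.79. The 2 probes had opposite signs on replicates 1, 2 and 4, so the Psmc6 transcript has no settled direction on these arrays. Without replicate 1 or replicate 2 the mean of the first probe was also above 0, at 0.02 and 0.05.

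**Figure D4:**
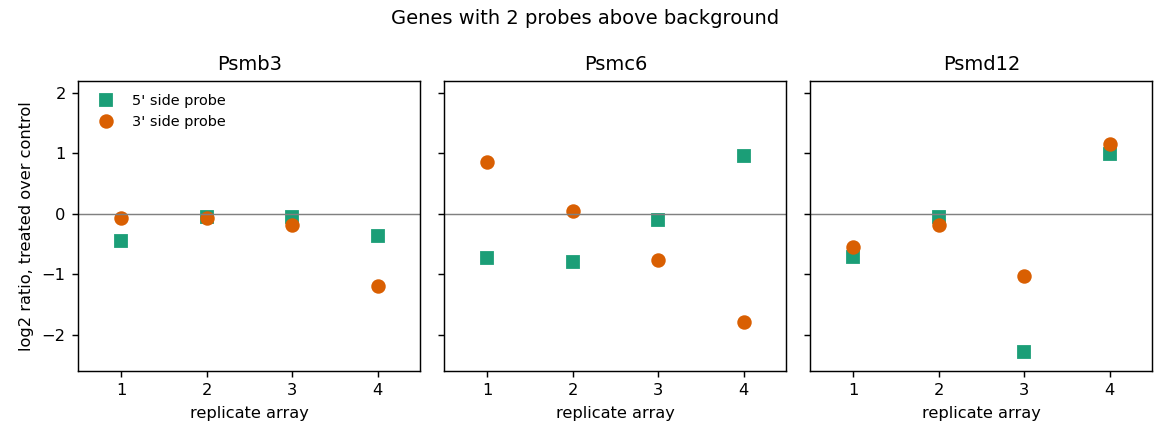
The log2 ratio of treated over control is plotted by replicate array for the 3 proteasome genes with 2 kept probes. In Psmb3 and Psmd12 the probe on the 5′ side (squares) and the probe on the 3′ side (circles) have the same sign on each array, while in Psmc6 they are on opposite sides of 0 on replicates 1, 2 and 4.

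The lid and base subunits had a median of 0.02 over 10 tested genes, with 4 below and 6 above 0, and 0.11, 0.001, -0.17 and 0.25 on replicates 1 to 4. Psmd9, a chaperone that helps to assemble the ATPase ring, had ratios of 0.50, -0.14, 0.55 and 0.12, a mean of 0.26 ± 0.20 (SE, n = 4). It was above 0 on 3 of 4 arrays, and its probe was above background on 3 treated and 4 control arrays. Psmd3, a structural subunit of the lid, had 0.01, 0.18, -0.19 and -1.80, a mean of -0.45 ± 0.37 (SE, n = 4). That mean came from replicate 4, and without it the mean was -5.9e-05.

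Psmd12, another lid subunit, varied most of all members between arrays. Its ratios were -0.71, -0.06, -2.29 and 0.99 on replicates 1 to 4, a mean of -0.52 ± 0.53 (SE, n = 4), and the lowest and the highest lay on replicates 3 and 4. Net intensities of this probe were 143, 104, 25.3 and 347 in treated oocytes, against 135, 304, 1074 and 458 in control oocytes. A second kept probe, 3′ of the one printed above, gave -0.55, -0.18, -1.04 and 1.16. Both probes had the same sign on each array. Psmd12 was picked for its spread and its 2 kept probes after its values were seen. Without replicate 3 the mean was 0.07.

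The other 7 tested subunits of the lid and base had means between -0.13 and 0.27. They were Psmd1 and Psmd2, which form the scaffold of the base, Psmd4, a receptor for ubiquitin chains, Psmd5, an assembly chaperone, and the lid subunits Psmd7, Psmd11 and Psmd14. On single arrays their ratios ran from -1.12 for Psmd7 to 0.97 for Psmd2, both on replicate 1. Each of these 7 genes had ratios on both sides of 0. Without replicate 1 the mean of Psmd7 was 0.20, against -0.13 with all arrays, and that of Psmd2 was -0.15, against 0.13.

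The activators had a median of -0.14 over 3 tested genes, with -0.41, -0.004, 0.40 and -0.40 on replicates 1 to 4. Psme4 encodes PA200, an activator known from mouse testis for its part in the removal of histones. Its net intensities were 3252, 241, 2601 and 543 in treated oocytes of replicates 1 to 4, against 1751, 1986, 8611 and 6543 in control oocytes. The normalized ratios were -0.41, -1.45, 0.40 and -1.91, below 0 on replicates 1, 2 and 4 and above it on replicate 3. The mean of -0.84 ± 0.41 (SE, n = 4) was the lowest of all 23 members, with an unadjusted limma p of 0.093. It stood at -1.26 without replicate 3 and at -0.49 without replicate 4. The 3 other probes of Psme4, which lie toward the 5′ end, were not kept.

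Psme1, the alpha chain of PA28, had ratios of -0.41, 0.03, 0.43 and -0.40, a mean of -0.09 ± 0.21 (SE, n = 4), with 2 arrays on either side of 0. The beta chain, Psme2, was read by probes that the array files name Psme2b-ps, a near-identical copy, so which of the 2 transcripts bound there is uncertain. Its ratios were -1.22, -0.00, 0.14 and 0.52, a mean of -0.14 ± 0.32 (SE, n = 4). The probe was above background on 1 treated array and on 3 control arrays, and without replicate 1 its mean was 0.22.

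Psmf1 encodes PI31, a protein found as an inhibitor of the core in the test tube. It had 0.07, -0.57, -1.69 and 0.59 on replicates 1 to 4, a mean of -0.40 ± 0.39 (SE, n = 4). The values lay on both sides of 0 and the probe was above background on 2 treated and 4 control arrays. Without replicate 3 the mean was 0.03.

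**Figure D5:**
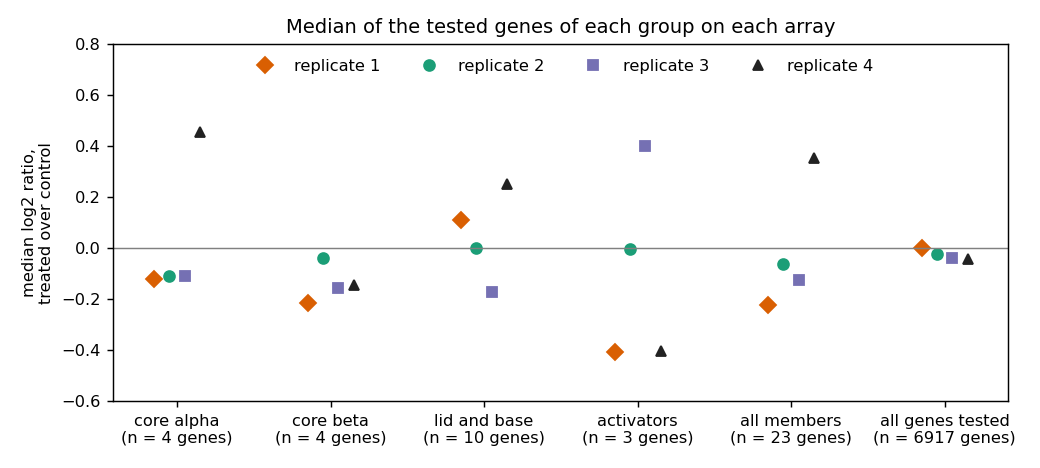
The median log2 ratio of treated over control is shown on each array for the role groups with at least 3 tested genes, for all 23 proteasome genes and for all 6917 genes tested. The core beta group lies below 0 on all 4 arrays, as does the median of all genes tested, which is nearer 0. The core alpha group has replicate 4 at 0.46 and the other arrays between -0.12 and -0.11.

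Other genes of the pathway were taken from lists of proteins that work with the proteasome. In none of the 5 lists was a gene called, against the same background of 0% of all genes. Cofactors that bind, assemble or shuttle to the proteasome had 16 of 20 genes tested, with 5 below and 11 above 0 and a median of 0.19. Of these, Zfand5, a zinc-finger protein that binds the proteasome and raises its activity, had -0.28, -0.53, -0.72 and -1.13 on replicates 1 to 4. It was below 0 on every array, with a mean of -0.67 ± 0.20 (SE, n = 4), an unadjusted limma p of 0.019 and an adjusted p of 0.93. Sem1, the smallest lid subunit, whose name falls outside the naming rule, had -0.99, -0.16, -0.48 and -0.16, a mean of -0.45 ± 0.21 (SE, n = 4), or -0.27 without replicate 1.

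The transcription factors and processing enzymes that control proteasome genes had 6 tested genes and a median of -0.02. Nfe2l2 (Nrf2) had 0.27, 0.56, -1.88 and -1.04 on replicates 1 to 4, with 2 arrays on either side of 0 and a mean of -0.52 that was -0.07 without replicate 3 and -0.35 without replicate 4. Maff, a small Maf protein that pairs with such factors, had 0.80, 1.08, -0.66 and 1.90, a mean of 0.78 ± 0.42 (SE, n = 4). It was above 0 on 3 of 4 arrays, and its mean was 1.26 without replicate 3 and 0.41 without replicate 4.

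The p97 unfoldase and its cofactors, which extract ubiquitin-tagged proteins from complexes and membranes, had 6 genes below and 5 above 0 and a median of -0.11. Ubxn1, a cofactor that binds ubiquitin chains, had -0.56, -0.40, -1.08 and -0.80, below 0 on every array. Its mean was -0.71 ± 0.19 (SE, n = 4), with an unadjusted limma p of 0.011 and an adjusted p of 0.93. With processed signals it was at -2.13. Ubxn6, another p97 cofactor, had -0.05, -0.18, -0.20 and -1.13, and its mean of -0.39 was -0.14 without replicate 4 and -2.96 with processed signals.

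Genes for ubiquitin and its activating enzymes had 5 below and 2 above 0 and a median of -0.20. Rps27a, which encodes ubiquitin fused to a ribosomal protein, had -1.42, -0.40, -1.05 and -0.38, below 0 on all 4 arrays, a mean of -0.81 ± 0.24 (SE, n = 4) with an unadjusted limma p of 0.018.

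The interferon and antigen presentation genes, which are induced together with the immunoproteasome in other cells, had 5 tested genes and a median of 0.19. All 5 had a mean above 0, where 3289 of all 6917 genes tested had one, but Irf1 fell below it with median centring. The median of the 5 genes was -0.30, 0.35, 0.32 and 0.32 on replicates 1 to 4, and so below 0 on replicate 1. Irf1, a transcription factor of the interferon response, had 0.48, 0.11, -0.43 and 0.91 on replicates 1 to 4, a mean of 0.27 ± 0.26 (SE, n = 4). Its mean was 0.05 without replicate 4 and 0.50 without replicate 3.

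The chaperone Psmg1, which starts assembly of the alpha ring, is listed in the array files under its older name Dscr2 and so fell outside the naming rule. It was above background in both channels of all 4 arrays, with ratios of 0.04, 0.27, 1.06 and -0.39, a mean of 0.25 ± 0.61 (SD, n = 4). Without replicate 3 the mean was -0.03, with the opposite sign. Psmg1 was chosen after its values were seen. Psmg2, Psmg3 and Psmb11, also listed under older names, had no kept probe.

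The promoters of the members were compared for 4 short motifs, chosen after several had been looked at. Each promoter was the 300 bases around the start of the gene in the RefSeq table of build GRCm38.p6, and 35 of the 43 members had one. The motif TGACNNNGC, the core of the antioxidant response element read by Nfe2l1 and Nfe2l2, was on either strand in 6 of 35 members (17.1%), against 14.0% of all 27025 promoters. CCGGAAG, a site of ETS factors, was in 12 of 35 (34.3%), against 9.93% of all. GGGCGG, a site of Sp factors, was in 21 of 35 (60%), against 38.2% of all, and CCAAT in 13 of 35 (37.1%), against 41.1% of all.

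The TGACNNNGC matches are shown with their flanking bases, the match in capitals, because the factors that read this motif are known regulators of proteasome genes. They are printed in the direction in which the motif reads as written.
Psmb5 (chr14:54618024-54618052, - strand): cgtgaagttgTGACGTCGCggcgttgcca
Psmb6 (chr11:70525338-70525366, + strand): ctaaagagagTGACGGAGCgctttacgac
Psmc6 (chr14:45329587-45329615, - strand): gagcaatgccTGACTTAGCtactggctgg
Psmd9 (chr5:123228149-123228177, + strand): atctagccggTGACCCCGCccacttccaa
Psmd12 (chr11:107479278-107479299, - strand): ggggcaaatgTGACACAGCaga
Psme4 (chr11:30771758-30771786, - strand): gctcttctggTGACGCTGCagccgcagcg

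Of these 6 genes 5 were tested, with a median log2 ratio of -0.17, and the 14 tested members with a promoter but no match had a median of 0.01. The 5 tested genes lay on both sides of 0, with Psmb6 and Psmd9 above it and Psmc6, Psmd12 and Psme4 below. For CCGGAAG the medians were -0.07 over 6 tested genes with the motif and 0.01 over 13 without. For CCAAT they were 0.01 over 6 with and -0.08 over 13 without. The widest gap was that for GGGCGG, with 0.01 over 14 with and -0.38 over 5 without. The value of -0.38 is that of Psmb3, whose mean was -0.11 without replicate 4. A match says only that these letters are in the window, and no test of binding was made here.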

How the data were processed

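The deposited scanner files give each spot's mean intensity and local background (median) in both channels. The submitters' processing notes name Agilent Feature Extraction 9.5.1.1. Per the file headers, background-subtracted, dye-normalized signals and a log10 ratio, red over green, are also given. The authors' value table equals that deposited log10 ratio to within 5.0e-10 on every array.

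From the intensities, background was corrected by normexp (offset 50) and dyes were balanced by loess within arrays, using R 4.3.3 and limma 3.58.1 (control spots had weight 0). Spots of a probe were averaged, and each gene was read by its brightest kept probe. This gave 6917 genes from 8108 kept probes. Log2 ratios were compared with 0 by lmFit and eBayes. All arrays lie on 1 slide with 1 scan. The submitters describe the replicates as biological. The sources used here do not say how many animals gave the oocytes.

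Values on every array are given for the 2 tested members of each role group with the smallest p, members of 1 sign on all arrays, the catalytic, immunoproteasome and activator genes, and of each pathway list the 2 genes with the smallest p, some of which are not reported here. Psmd12 was added after its values were seen, for its spread and its 2 kept probes. The members and lists were chosen with earlier results of these data known. The alternatives covered background correction, normalization, the filter on dim probes, the choice of probe, eBayes settings, array weights, the authors' values, replicate 1 with its sign turned, and leaving out each array.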

Additional observations from a re-analysis of the deposited data

Results flagged for a closer look

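In 5 of 29 sets of 4 arrays, 1 array lay so far from the others that its gap, as a share of the whole range, passed Dixon's 95% critical value, which chance alone does in about 5% of sets. The sets did not cover every member. Psmd2, for one, was left out, with 0.97 on replicate 1 and -0.18 to -0.12 on the other arrays. Of the flagged sets, 4 concern replicate 4, a count that holds only for the sets tried. Psma1 is itself a core alpha gene, so its flag and that of the group median are not separate. Psma1 was at 0.33 on replicate 4 and between -0.25 and -0.17 on the other arrays, and the median of the core alpha group was at 0.46 on replicate 4 and between -0.12 and -0.11 on the others. Psmb3 was at -1.19 on replicate 4 and between -0.18 and -0.07 on the others. The p97 cofactor Ubxn6 was at -1.13 on replicate 4 and between -0.20 and -0.05 on the others. On replicate 1 the treated channel's net signal at the 99th percentile was 2.53 times the control channel's, and on the others 0.25 to 0.39 times.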

How the results depend on the processing

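At an adjusted p of 0.05, limma called 0 of the tested proteasome genes in each of 15 other settings. The lowest adjusted p of any gene on the array was 0.053, with the sign of replicate 1 turned, and 0.17 without replicate 1. Median centring in place of loess moved the median of all genes tested to -0.34, Agilent's processed signals to -0.18 and the authors' values to -0.12. With median centring the median of the members was -0.39, of core alpha -0.68, of core beta -0.59 and of the lid and base -0.27. With processed signals core beta was at -0.38, the activators at -0.98 and Psmf1 at -2.35, and with the authors' values these stood at -0.31, -0.91 and -2.28. Core beta was at -0.38 with both channels required above background, at -0.0027 with no filter, at -0.10 with array weights and at -0.029 with replicate 1 turned.

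Signs turned for several genes. Psma7 was at -0.096 with processed signals, -0.17 with scaling between arrays, -0.028 with the authors' values, -0.23 with array weights and -0.42 with replicate 1 turned. Psmb6 was at -0.43 with processed signals, -0.093 without background subtraction, -0.16 with median centring and -0.37 with the authors' values. With replicate 1 turned, Psma1 was at 0.059, Psmc6 at 0.20, Psme2b-ps at 0.47, Psme1 at 0.12 and Sem1 at 0.049, and Psmb4 kept its sign at -0.20. Psme1 was at 0.041 with array weights, and Irf1 at -0.13 with median centring. With processed signals and the authors' values the means grew to 1.33 and 1.39 for Irf1, 3.09 and 3.16 for Maff, -2.13 and -2.06 for Ubxn1 and -2.96 and -2.89 for Ubxn6. Rps27a was at -0.10 with replicate 1 turned. The cause was not tested for any of these.

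With 1 array left out, means ran from -0.052 to 0.66 for Psma7, -0.54 to 0.045 for Psmc6, -0.36 to 0.22 for Psme2b-ps, -0.73 to 0.030 for Psmf1, -0.12 to 0.10 for Psmb6, -0.26 to 0.018 for Psme1 and -1.02 to 0.072 for Psmd12. The median of the members ran from -0.12 to 0.03. Requiring both channels above background left 14 members, with no value for Psma7, Psmb6, Psmd2, Psmd4, Psmd5, Psmd9, Psmd14, Psme2b-ps and Psmf1, nor for Maff, Ubxn1, Ubxn6 and Irf1. A block for the slide could not be fitted, as all arrays share 1. The test of each array's ratio against 0 is itself the paired comparison of the 4 pairs of pools, so no block was added to it. Signal over background limits these results: 20 of 43 members could not be tested.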
